A study of Mus musculus with 27 samples.

Results

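Antisense long non-coding RNAs are transcribed from the DNA strand opposite a protein-coding gene. The genes described here are those that the GENCODE M21 mouse annotation types as antisense and whose mean level was at least 2 FPKM (fragments per kilobase of transcript, scaled to the mapped fragments of the library) over the 3 nuclear libraries of day 0. Of 1740 antisense genes with a value, 334 met this rule, which is 19.2%, and of all genes in the files they are 334 of 38123. Airn, Kcnq1ot1, Epb41l4aos and symbols starting with Platr, Snhg or Mir were left out by name, which removed Platr31 (2.07 FPKM) and Snhg9 (3.19 FPKM). The genes were thus chosen by their nuclear values at day 0. Those values and every contrast that uses them are given below as a description with no test. Nuclear libraries of day 0 also enter the fit of the fraction tests, as part of the filter and of the estimated spread.

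The cells were a mouse embryonic stem cell line (DTCM23/49, XY) with a conditional Dicer allele, grown in serum with LIF on gelatin. Tamoxifen (4-hydroxytamoxifen, 800 nM) deleted the RNase III domain of Dicer, and ethanol was the vehicle control. Dicer-deficient colonies were selected, expanded and passaged, and the labels name no vehicle-treated library after day 0, so time in culture, selection and loss of Dicer cannot be told apart. Polyadenylated RNA was read with directional paired-end libraries of 100 bases from whole cells at day 0 and at days 4, 8, 10 and 12, and from nuclear and cytoplasmic fractions at days 0 and 12. Each of the 9 groups had 3 replicates. Nothing in the labels says that replicates were separate cultures, and p-values then cover only the spread among these libraries, which may be technical. FPKM is relative within a library, and in bulk RNA fewer cells that express a gene and less RNA per cell cannot be told apart.

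Antisense lncRNAs can lie inside a coding gene, meet it tail to tail, or start beside it and run the other way from a shared promoter region. Some act on the neighbouring gene in the nucleus, some have roles elsewhere, and for most no role is known. Dicer cuts precursor hairpins into microRNAs, which lower the stability and translation of target RNAs, and stem cells without Dicer keep growing but differentiate poorly. Overlapping genes raise a counting problem: a read from shared exon bases belongs to the strand it came from, and the strand setting of the authors' quantification is not given in the sources used here. Without it, reads from an antisense gene and from its opposite-strand partner cannot be told apart, so partner values are given beside many of the results below.

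The targeted gene checks the labels. Dicer1 had means of 16.3 FPKM in whole cells at day 0 and 1.41, 1.71 and 1.83 FPKM at days 4, 8 and 10, and fell from 22.5 to 3.06 FPKM in the cytoplasm and from 13.3 to 4.20 FPKM in the nucleus by day 12. It stood at 14.6 ± 1.77 FPKM (SD, n = 3) in whole-cell libraries with the label day 12, which goes against that label, and these libraries are called "labelled day 12" throughout. All 12 pluripotency markers were at 1 FPKM or more in every group. In whole cells the summed level of 9 fibroblast and smooth muscle markers was 128 to 155 FPKM per library at day 0 and 836 to 857 at day 10. That of 6 trophoblast markers was 144 to 192 and then 509 to 544. The sums of 8 endoderm markers (11.7 to 13.1 and then 39.1 to 41.3) and 6 mesoderm markers (3.33 to 5.02 and then 8.60 to 10.6) were also higher at day 10. So was that of 6 neuroectoderm markers (51.8 to 64.5 and then 72.9 to 74.8). Not every marker was higher: the mean of Thy1 went from 7.62 to 1.82 FPKM, that of Tfap2c from 23.4 to 17.0 and that of T from 0.529 to 0.333. Most of the endoderm sum at day 10 came from Col4a1 (23.5) and Col4a2 (13.3), and most of the trophoblast sum from Krt8 (262) and Krt18 (247). Hand1 (1.61 to 5.20) led the mesoderm rise. At day 10, 5 endoderm, 3 mesoderm, 2 neuroectoderm and 1 trophoblast marker were under 1 FPKM. Of the 9 fibroblast and smooth muscle markers, 4 were under 1 FPKM in whole cells at day 0, with Lum at 0 in all 3 whole-cell libraries, and 3 at day 10. The nuclear libraries of day 0, which chose the genes, had sums of 297 to 589 FPKM for the fibroblast and smooth muscle markers. Their sums were 433 to 721 for trophoblast, 44.2 to 77.7 for endoderm and 3.91 to 8.78 for mesoderm markers. The part of other cell types in the results was not tested. The mean correlation of a library with the rest of its group was 0.923 to 0.967 in the nuclear groups, 0.946 to 0.967 at day 4 and at least 0.983 in the other groups. Nucleus day 0 replicate 3, nucleus day 12 replicate 1 and whole-cell day 4 replicate 3 stood apart from their groups, and the day 0 whole-cell libraries were 3.07 to 3.62 times as deep as day 4 replicate 1, estimated from the steps between low values.

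By the annotation, 151 of the 334 lay inside the span of a coding partner, 95 met it tail to tail, 59 overlapped it head to head, 9 started beside it head to head without overlap, 11 contained it and 9 had no coding partner. A partner is the opposite-strand coding gene that shares the most bases or, failing that, starts within 2000 bases. There were 320 partners, of which Bcl3, Mid1, Pi4kb, Slc2a1 and Ube4b each had 2 antisense genes. Exon bases were shared with the partner in 290 genes (median 286.5 bases, range 2 to 2696). Sharing was counted with this partner alone, and 56 genes overlapped several opposite-strand coding genes. While 44 genes shared none with the partner, 37 shared none with any measured coding gene on the other strand. Some of the 44 thus overlap exons of another coding gene. In 65 genes at least 50% of all exon bases were shared, and in 18 every base was. The genes had a median of 972.5 exon bases and 3 exons, and 227 have only a predicted-gene symbol starting with Gm. They lay on 20 chromosomes, with the largest count, 49, on chromosome 11.

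The 9 pairs that start side by side without overlapping share no transcribed bases, and their promoter windows are therefore shown for the 3 antisense genes among them that fell both in whole cells at day 10 and in the cytoplasm at day 12 and have a RefSeq promoter entry. These are Map2k3os (window chr11:60931818-60932117, minus strand), 2810001G20Rik (chr11:64079234-64079533, plus strand) and Gm11423 (chr11:82780993-82781292, minus strand). The windows run from 250 bases before to 50 bases after the annotated start, in build GRCm38.p6, and 286, 111 and 166 of their bases also lie in the window of the coding partner, Map2k3, Cox10 and Lig3 respectively. Galnt6os (chr15:100695482-100695781, plus strand), which lies inside Galnt6 and rose, is shown for contrast. Sequences read 5′ to 3′ and capitals mark matches to a GC box, a CCAAT box or an E-box on either strand.
Map2k3os: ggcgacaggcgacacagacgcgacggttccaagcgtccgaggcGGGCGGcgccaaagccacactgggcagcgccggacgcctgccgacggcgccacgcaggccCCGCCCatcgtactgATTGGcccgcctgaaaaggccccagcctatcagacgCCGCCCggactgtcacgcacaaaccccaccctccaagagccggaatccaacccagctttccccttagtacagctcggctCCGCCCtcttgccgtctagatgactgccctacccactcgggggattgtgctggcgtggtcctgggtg
2810001G20Rik: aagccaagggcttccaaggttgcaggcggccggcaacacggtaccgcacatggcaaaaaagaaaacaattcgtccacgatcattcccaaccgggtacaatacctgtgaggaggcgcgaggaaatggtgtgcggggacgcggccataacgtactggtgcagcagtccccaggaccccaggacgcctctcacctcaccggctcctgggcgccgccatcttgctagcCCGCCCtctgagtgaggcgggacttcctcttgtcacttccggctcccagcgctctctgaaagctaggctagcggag
Gm11423: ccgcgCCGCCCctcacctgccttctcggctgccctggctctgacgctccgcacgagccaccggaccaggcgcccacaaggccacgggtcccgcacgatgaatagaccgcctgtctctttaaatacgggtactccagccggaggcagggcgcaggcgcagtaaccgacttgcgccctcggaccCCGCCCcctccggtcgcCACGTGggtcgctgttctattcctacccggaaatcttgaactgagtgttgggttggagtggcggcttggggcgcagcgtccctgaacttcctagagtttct
Galnt6os: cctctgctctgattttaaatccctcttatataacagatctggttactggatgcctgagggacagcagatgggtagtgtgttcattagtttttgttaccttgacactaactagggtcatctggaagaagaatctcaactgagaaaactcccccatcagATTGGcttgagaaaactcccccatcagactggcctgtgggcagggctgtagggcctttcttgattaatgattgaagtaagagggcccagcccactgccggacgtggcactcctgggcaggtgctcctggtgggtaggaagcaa
The first 3 windows held 30, 22 and 29 CG dinucleotides and the Galnt6os window held 2. These genes were chosen by both pair type and direction of change, so the counts cannot tell the part of either.

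RefSeq windows matched 117 of the 334 genes, and 17 of these windows shared bases with the partner's window. The GC box (GGGCGG or its complement) was in 53.0% of the 117 windows and in 35.6% of 32708 windows of other genes. The E-box CACGTG was in 15.4% against 7.12%, CCAAT in 34.2% against 37.4%, TATAAA in 5.13% against 13.7%, and the octamer ATGCAAAT in 0.855% against 1.74%, each searched on both strands. The windows held a median of 15 CG dinucleotides against 7. These are counts of letters and no test was made of them. The 2 sides are unlike: each of the 117 genes gave 1 window and was chosen by its nuclear level. Other genes could give several windows and were of any level in these cells. Windows of other genes above the same nuclear level were not compared.

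Nuclear levels at day 0 ran from 2.00 to 293 FPKM, as the rule left them. Of the 334, 168 had means from 2 to 5 FPKM, 80 from 5 to 10, 48 from 10 to 20, 25 from 20 to 50 and 13 above that, with a median of 4.92 FPKM. All 3 nuclear libraries were at 2 FPKM or more for 250 genes, 2 of them for 65 and 1 for 19, and in 12 of those 19 the high library was replicate 3. Just above the threshold were Itpr3os (2.00 FPKM, with libraries at 2.25, 3.63 and 0.119), Gm10069 (2.01) and Gm13008 (2.02), and just below were Gm16712 (1.99), Gm16183 (1.99) and Gm12981 (1.98). Medians of the means were 4.10 FPKM in whole cells at day 0, 4.03 and 4.52 in the cytoplasm at days 0 and 12 and 4.99 in the nucleus at day 12, where 275 genes still had a mean of at least 2 FPKM.

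Of the 10 genes highest in the nucleus at day 0, 4 are given here with their partners in whole cells. Gm19553 (chr17:35509077-35510551, minus strand) lies inside Pou5f1, which encodes the pluripotency factor Oct4, and 64.2% of its exon bases are in Pou5f1 exons. It was at 412, 373 and 366 FPKM in whole cells at day 0, beside 350, 325 and 322 FPKM for Pou5f1, and both genes stayed within 366 to 546 and 322 to 455 FPKM in all 15 whole-cell libraries. Gm17232 (chr14:63493699-63499872, plus strand) lies inside Tdh, the threonine dehydrogenase on which mouse stem cells depend, and had 236, 205 and 229 FPKM beside 208, 184 and 198 for Tdh. Gm12868, tail to tail with the glucose transporter gene Slc2a1, had 102 FPKM on average beside 264, and Gm12999, which lies wholly in exons of the ATP synthase inhibitor gene Atpif1, had 87.0 beside 203. In the nucleus at day 0 the order was Gm15726 (293 FPKM), Gm19553 (155), Gm15247 (95.3), Gm17111 (89.4), Gm17232 (87.0), Gm12999 (85.0), Scpep1os (78.4), Gm15441 (73.4), Gm11508 (68.4) and Gm12868 (66.9). Gm15726 had an SD of 155 over its libraries of 377, 388 and 115 FPKM, and each gene's libraries overlapped those of the next in this order.

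Antisense genes that share exons with an abundant coding gene were more often in the set, which is a description because the rule fixed the set. Among all 1740 antisense genes with a value, those sharing no exon bases with a measured coding gene on the other strand were in the set in 37 of 751 cases (4.93%). Where the coding gene was under 1 FPKM in whole cells at day 0 it was 20 of 410 (4.88%), at 1 to 5 FPKM 69 of 268 (25.7%), at 5 to 20 FPKM 123 of 203 (60.6%), and at 20 FPKM or more 85 of 108 (78.7%). Of the 24 antisense genes with at least 50% of their exon bases in exons of a partner at 20 FPKM or more, 20 stood at 10 FPKM or more and their median was 71.1% of the partner's level. Gm17134, wholly inside exons of the splicing repressor gene Ptbp1, had 98.4 FPKM beside 105. The exceptions under 1 FPKM were Gm12764, at 0.0541 FPKM opposite Lsm14a at 43.1, and Gm15976, at 0.116 opposite Atp5o at 89.3, neither of them in the set.

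The level was lower relative to the partner where no bases were shared. Over 320 pairs with values, the antisense gene had a median of 51.6% of its partner's FPKM in whole cells at day 0, and 95 exceeded the partner. The median was 66.5% in 64 pairs that share at least 50% of exon bases, 53.6% in 224 pairs that share fewer, 10.7% in 32 pairs that share none and 7.73% in the 9 side-by-side pairs, none of which exceeded the partner. How far reads of the partner enter these values was not tested.

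**Figure D1:**
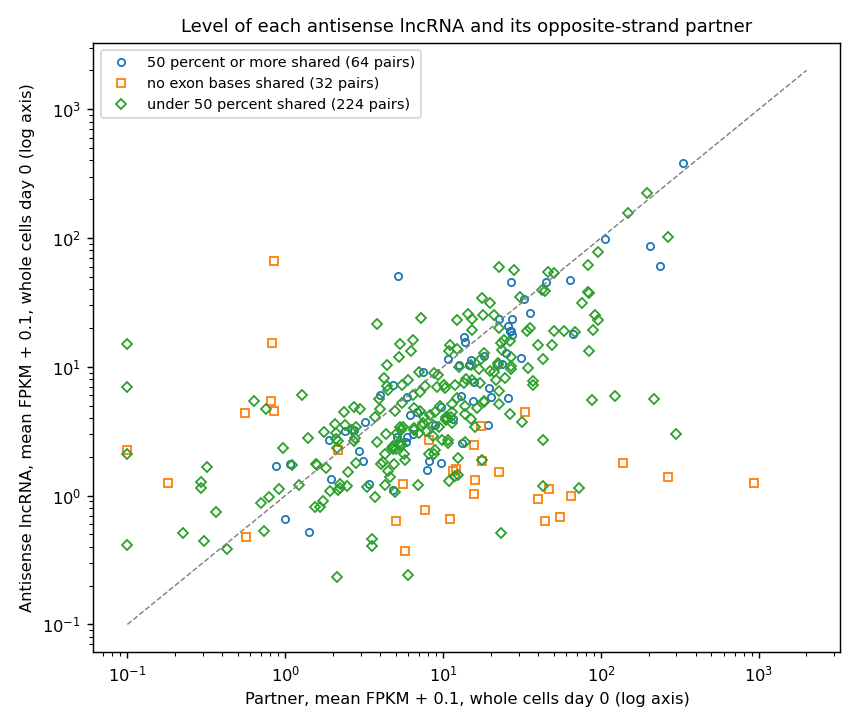
Mean FPKM of each antisense lncRNA (y axis, log scale, 0.1 added) against that of its coding partner (x axis, log scale, 0.1 added) in whole cells at day 0, 1 symbol per pair, with the line of equal levels dashed. Pairs that share exon bases lie along the line from low to high levels (medians of 66.5% and 53.6% of the partner), and many pairs that share none lie well below it (10.7%).

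Changes across days were tested with limma on log2(FPKM + 0.5), adjusted over all genes tested by Benjamini and Hochberg's method with a threshold of 0.05. Whole-cell comparisons held 325 of the 334 genes, since 9 had means under 0.5 FPKM on every day, and log2 changes on this scale understate those of low genes. The 4 comparisons share the day 0 libraries. At day 4, 4 antisense genes were higher and 6 lower, which is 3.08% of those tested, where 6.7% of all 15991 genes passed (4.88% higher and 1.82% lower). At day 8, 22 were higher and 37 lower (18.2% against 29.8%, with 20.2% of all genes higher and 9.62% lower), and at day 10, 44 were higher and 43 lower (26.8% against 43.7%). By direction, 13.5% were higher and 13.2% lower at day 10, against 27.7% and 16% of all genes. In the libraries labelled day 12, 13 were higher and 6 lower (5.85% against 13.6%, with 10.2% of all genes higher and 3.34% lower). Across days 4, 8 and 10, 221 of the 325 passed on no day.

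The antisense share of calls was below the background on each of these days. Intergenic lncRNAs (GENCODE type lincRNA) at 2 FPKM or more in the nucleus at day 0 were not matched in level beyond that. They passed in 41.4% of 162 genes at day 10 and the coding partners in 44.7% of 302. These shares were 9.88% and 2.32% at day 4, 25.3% and 30.8% at day 8, and 13.6% and 11.3% for labelled day 12. The partners at day 4 and labelled day 12, and the lincRNAs at days 8 and 10, were thus also below all genes. The median log2 change of the antisense genes at day 10 was 0.01, against 0.09 for all genes. Medians of -0.14, -0.03 and -0.02 at days 4, 8 and labelled day 12 stood beside 0.00, 0.06 and 0.06. At day 4, 214 of 325 had a negative estimate, and in whole-cell day 4 replicate 3 the median level was 2.55 FPKM beside 4.04 and 4.24 in the other libraries of that day. Without that library the median change of the antisense genes at day 4 was 0.03, beside 0.06 for all genes.

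The balance of rises and falls depended on scaling. Median-of-ratios scaling gave 3 higher and 8 lower at day 4, 16 and 45 at day 8, 38 and 61 at day 10 and 8 and 11 in the libraries labelled day 12. Quantile normalization gave 3 and 14, 14 and 61, 31 and 84, and 5 and 11, and moved the median of all genes at day 10 from 0.09 to -0.08. Over all genes, the split went from 3230 higher and 1539 lower to 2487 and 2841 at day 8 under quantile normalization, and from 4427 and 2560 to 3373 and 4122 at day 10. Median-of-ratios scaling gave 2739 and 2113 at day 8 and 3818 and 3324 at day 10 over all genes. At day 4 all genes split into 758 and 313 under median-of-ratios scaling and 711 and 545 under quantile normalization. For labelled day 12 these splits were 1151 and 898, and 1086 and 1302. Without 1 library the count at day 4 was 6 (without day 0 replicate 2), 21 (without day 4 replicate 2) or 18 (without day 4 replicate 3). These were 1.85%, 6.46% and 5.54% of the antisense genes tested, against 4.59%, 8.68% and 10.7% of all genes. At day 8 it was 36, 37, 32 or 35 (without day 0 replicate 1 or 3, or day 8 replicate 1 or 3). The shares were 11.1%, 11.3%, 9.85% and 10.8%, against 21.8%, 23.6%, 23.3% and 23.4% of all genes. For labelled day 12 the count was 7 or 10 (without day 0 replicate 2 or 3) and 12, 8 or 10 (without replicate 1, 2 or 3 of that group). In the same order, the shares of all genes were 6.63% and 9.7%, and 9.78%, 8.58% and 8.59%, against 2.15% and 3.07%, and 3.69%, 2.45% and 3.08% of the antisense genes. Fits of only the 2 groups compared called 4 genes at day 4 (1.25% against 2.95% of all genes), 115 at day 8 (35.9% against 44%), 151 at day 10 (46.9% against 58.3%) and 77 for labelled day 12 (23.8% against 25.5%).

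**Figure D2:**
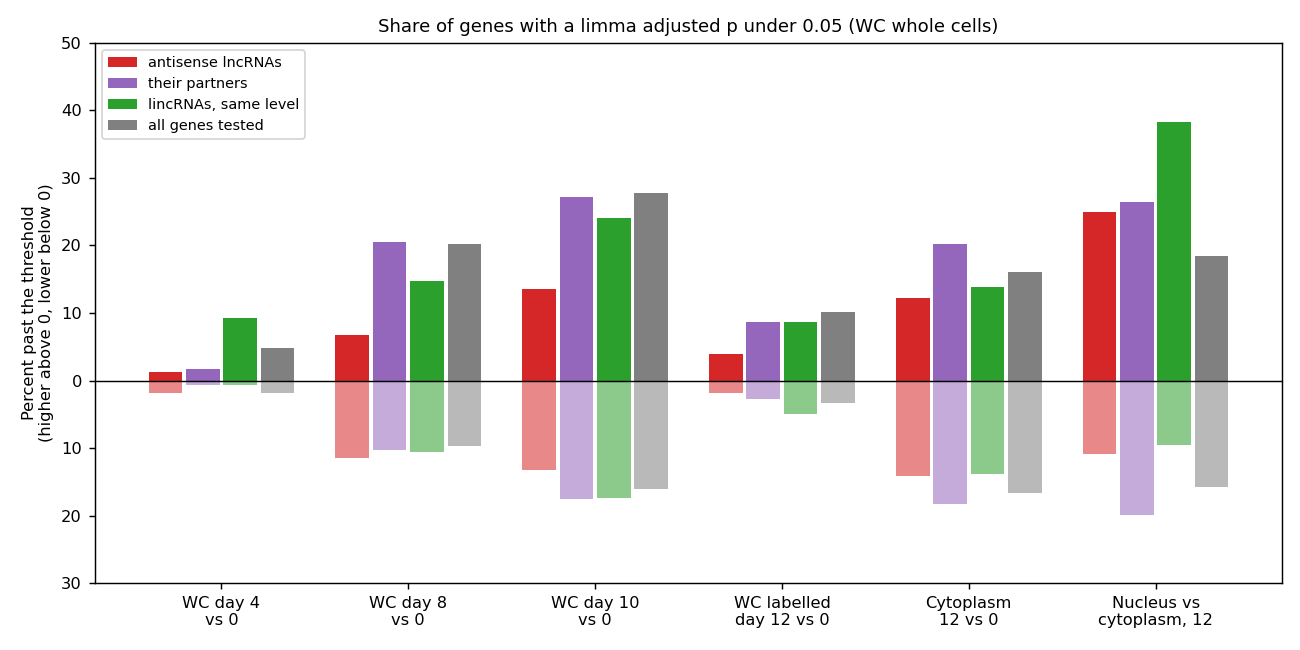
Percent of genes past the threshold in each comparison (y axis, higher above 0 and lower below 0), with no error bars because each bar is a count. Bars are for the antisense lncRNAs, their coding partners, lincRNAs and all genes tested. The lincRNAs, marked same level, are those at 2 FPKM or more in the nucleus at day 0. At day 10 the antisense bars reach 13.5% higher and 13.2% lower, and those of all genes 27.7% and 16%.

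The largest rises in whole cells at day 10 were in genes with no coding partner. Gm17146 (chr3:88722090-88722670, plus strand, 372 exon bases) was at 0, 0.118 and 0.229 FPKM in whole cells at day 0, at 3.27, 1.94 and 2.02 at day 4, at 2.07, 3.57 and 2.37 at day 8 and at 5.28, 6.41 and 8.83 at day 10. Every later library lay above every day 0 library, those labelled day 12 included (1.39, 1.95 and 4.05). Its log2 change was 2.23 ± 0.31 (SE) at day 4 and 3.56 ± 0.31 at day 10 (limma adjusted p of 0.000427 and 1.41e-06), and it passed on all days.

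4933427J07Rik (chr2:128955671-128957861, minus strand) went from 9.93, 4.85 and 5.67 FPKM at day 0 to 18.7, 23.3 and 21.8 at day 4 and 28.8, 27.1 and 23.6 at day 10, with no overlap. The change was 1.63 ± 0.22 at day 4 and 1.94 ± 0.22 at day 10 (limma adjusted p of 0.000327 and 1.26e-05). 4933427J07Rik also passed at day 8 and in the libraries labelled day 12. For the latter the change ran from 0.71 to 1.19 over the alternative fits, and the call was lost in 4 of them. The other genes with no partner did not pass at day 10, and 2 of the 9 were not tested.

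**Figure D3:**
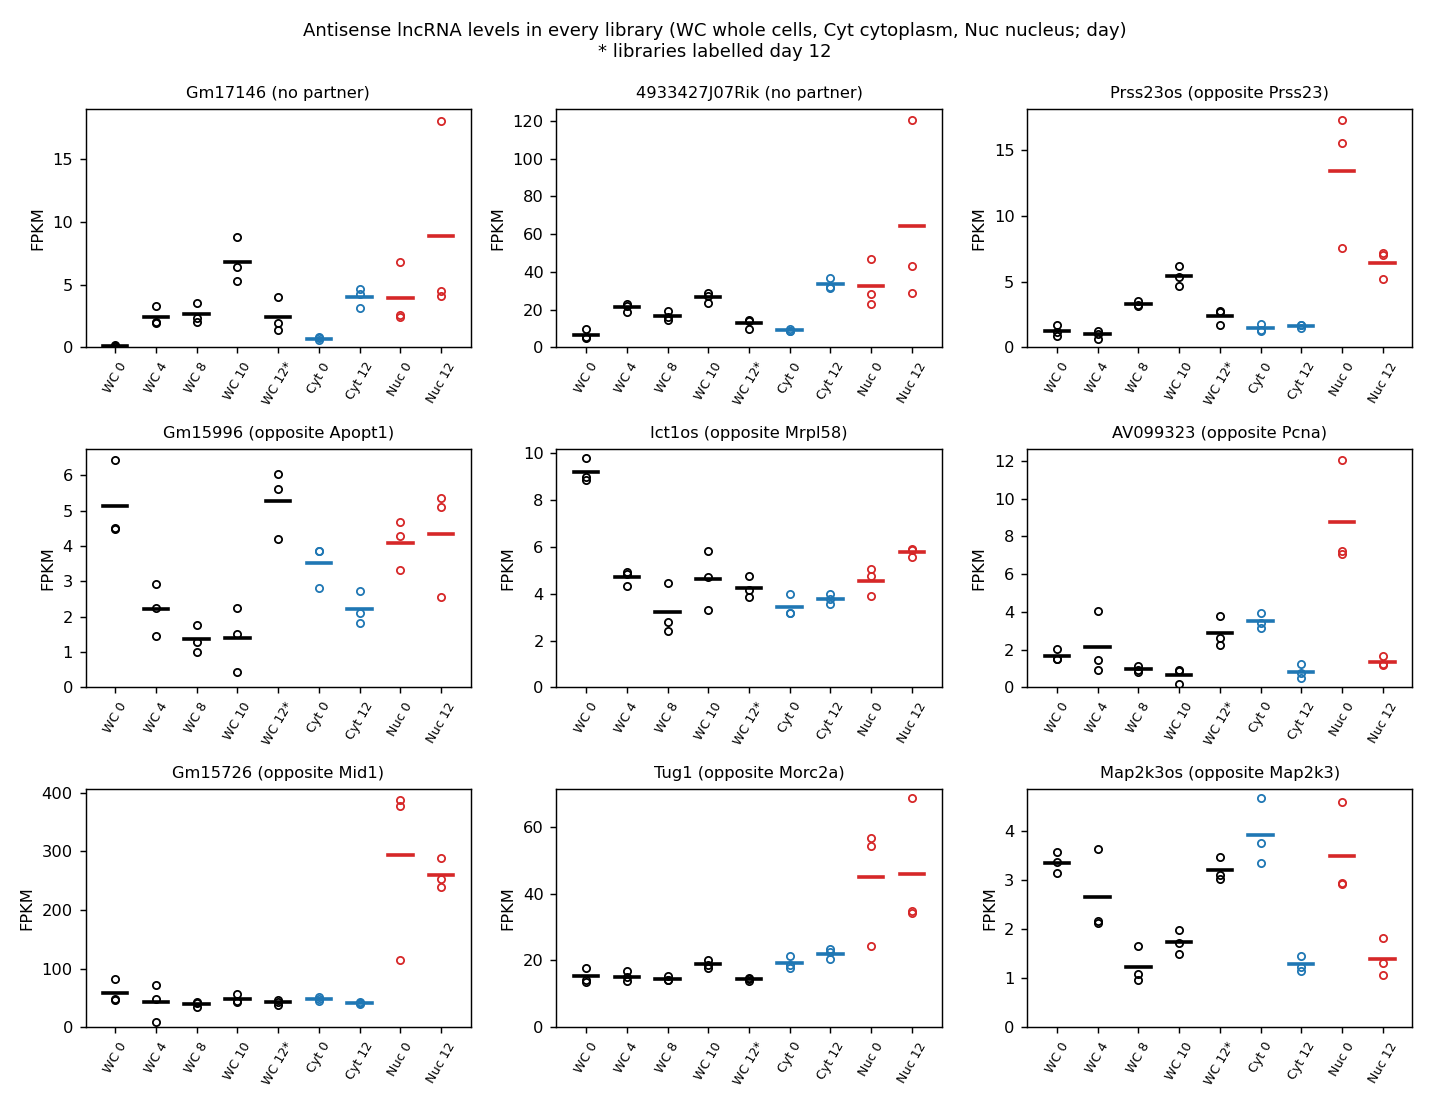
FPKM of 9 antisense lncRNAs (y axes from 0) in every library, open circles for libraries and bars for group means, for whole cells (WC), cytoplasm (Cyt) and nucleus (Nuc) by day. Gm17146 rises from a mean of 0.116 FPKM at day 0 to 6.84 at day 10 in whole cells, Gm15996 falls from 5.14 to 1.40, and Gm15726 is at 239 to 289 FPKM in the nuclear and 39.4 to 42.8 in the cytoplasmic libraries of day 12.

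The other leading rises at day 10 stood beside rises of the partner. Gm17201 lies in Ankrd52, a subunit of a protein phosphatase complex, and went from 1.19, 0.858 and 0.946 to 4.60, 5.06 and 4.61 FPKM, a log2 change of 1.82 ± 0.17 where Ankrd52 changed by 1.75 ± 0.39. Gm16229 lies in Nab2, a co-repressor of early growth response factors, and went from 2.66, 3.39 and 3.34 to 12.6, 10.9 and 12.3 FPKM (1.78 ± 0.32, Nab2 1.64 ± 0.12). Prss23os, inside the serine protease gene Prss23, went from 0.854, 1.70 and 1.20 to 5.37, 4.65 and 6.20 FPKM (1.77 ± 0.21, Prss23 1.78 ± 0.16). None of these groups overlapped, and all 6 changes passed (limma adjusted p from 2.4e-07 to 0.00255).

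Gm16048, inside the natriuretic peptide receptor gene Npr1, rose by 1.62 ± 0.22 and Npr1 by 1.35 ± 0.12. Galnt6os, inside the glycosyltransferase gene Galnt6, was at 2.36, 2.09 and 2.54 FPKM at day 0 and 7.20, 9.29 and 7.63 at day 10. It rose by 1.59 ± 0.47 and Galnt6 by 1.69 ± 0.19, and without day 10 replicate 2 the call for Galnt6os was lost. Gm11175, whose exon bases all lie in the AP-1 gene Jund, rose at day 8, at day 10 and in the libraries labelled day 12 (by 0.68, 0.85 and 0.79, each ± 0.10) and Jund by 0.90, 0.93 and 0.88 (each ± 0.11) and at day 4 by 0.50 ± 0.11.

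Among the falls, Ict1os had no call in its partner. It lies in Mrpl58, which encodes a mitochondrial peptidyl-tRNA hydrolase, shares 2 exon bases with it, and is at chr11:115406586-115408314, minus strand. It was at 9.82, 8.99 and 8.86 FPKM at day 0, at 4.35, 4.91 and 4.83 at day 4, at 2.41, 2.78 and 4.47 at day 8 and at 5.81, 4.72 and 3.31 at day 10. All later libraries lay below day 0. The changes were -0.90, -1.43 and -0.96 (each ± 0.20), and -1.03 ± 0.20 in the libraries labelled day 12, with limma adjusted p of 0.0122, 0.000134, 0.00154 and 0.00385. The day 4 call was lost without day 0 replicate 1 (limma adjusted p = 0.0526). Mrpl58 changed by -0.11 to -0.28 (each ± 0.14) at days 4 to 10 and by 0.16 ± 0.14 in the libraries labelled day 12, with no call. In the cytoplasm Ict1os was at 3.18, 3.99 and 3.16 FPKM at day 0 and 3.79, 3.54 and 4.00 at day 12, which overlapped.

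Gm17232 fell on all days where Tdh passed on 1. From a mean of 223 FPKM it went to 142, 128, 125 and, in the libraries labelled day 12, 149, with log2 changes of -0.65, -0.80, -0.84 and -0.58 (each ± 0.08, limma adjusted p from 1.84e-06 to 0.000203). Tdh changed by 0.01, -0.17, -0.19 and 0.09 (each ± 0.07) and passed at day 10 (adjusted p = 0.049). Of the exon bases of Gm17232, 14.6% lie in Tdh exons. The difference between the changes of a gene and its partner was not tested.

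Among other falls at day 10, Gm15996 went from 6.44, 4.49 and 4.50 to 1.51, 0.440 and 2.25 FPKM (-1.68 ± 0.33) beside a fall of its partner Apopt1 of -0.49 ± 0.16. Gm20652 fell by -1.32 ± 0.38, and its partner Arhgef2 changed by -0.26 ± 0.15 with no call. Gm14493, wholly in exons of Mid1ip1, fell by -1.25 ± 0.24 beside -1.23 ± 0.08. Gm15512, tail to tail with Arhgap22, fell by -1.11 ± 0.14 beside -0.77 ± 0.23. Gm15873 fell by -1.22 ± 0.36 beside -0.74 ± 0.24 for the cilia assembly gene Dnaaf3, a call lost without day 0 replicate 1 or day 10 replicate 1. B230322F03Rik, head to head with Nudt19, fell on all days (from -0.82 to -1.37, each ± 0.18), and Nudt19 fell at days 8 and 10 (-0.87 and -1.08, each ± 0.13). The day 4 call for B230322F03Rik was lost without day 0 replicate 2 and in the fit of only the 2 groups compared. At day 4 the third rise after Gm17146 and 4933427J07Rik was Phf2os1, (0.85 ± 0.22, to a mean of 0.625 FPKM), whose call was lost in 5 of the 6 fits without 1 library.

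Calls at day 10 were also compared pair by pair. In 303 pairs with both genes tested, both were higher in 35 and both lower in 26, the antisense gene alone was higher in 7 and lower in 13, the partner alone passed in 74, neither in 148 and none went in opposite directions. Of the 72 called antisense genes that share exon bases, 58 had a partner called in the same direction, and of 9 called genes that share none, 3 did. Opposite calls were absent on the other days in whole cells too. At day 8, 17 pairs were both higher and 13 both lower, with 3 and 20 antisense genes called alone. In the libraries labelled day 12, 5 pairs were both higher and 11 antisense genes were called alone.

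**Figure D4:**
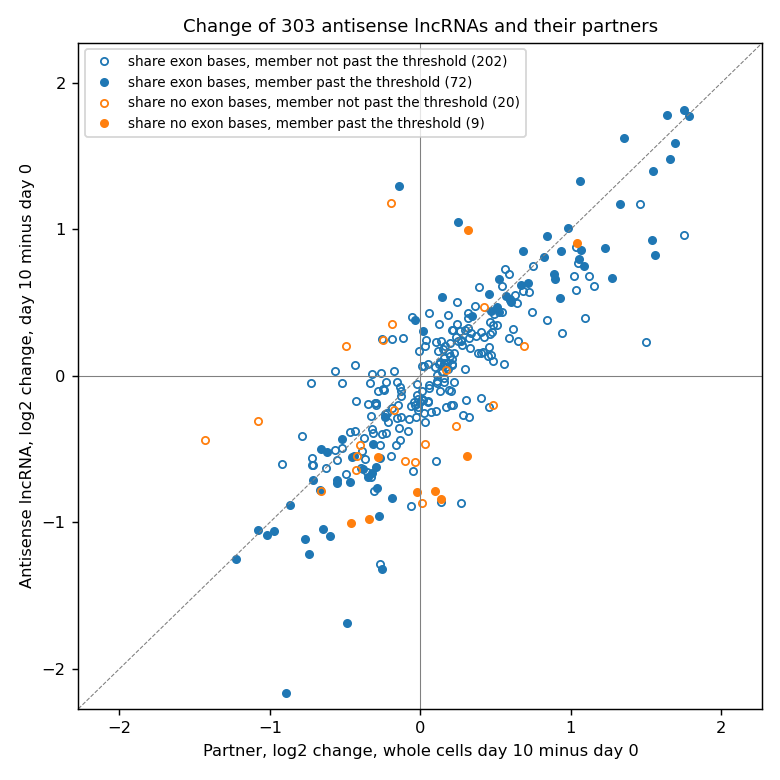
Log2 change of each antisense lncRNA (y axis) against that of its coding partner (x axis) in whole cells, day 10 minus day 0, for 303 pairs, filled where the antisense gene passed the threshold and with the line of equal change dashed. Pairs that share exon bases (blue) follow the line, and of the 9 filled pairs that share none (orange) 7 are below 0 on the y axis.

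In the cytoplasm at day 12, 41 antisense genes were higher and 47 lower than at day 0, 26.3% of 334, where 32.6% of 17124 genes passed (16% higher and 16.6% lower). All 334 were tested, each of them having passed the filter through the nuclear libraries of day 0. The median change was -0.03, and -0.01 over all genes. Of 167 lincRNAs at 2 FPKM or more in the nucleus at day 0, 27.5% passed, and of 307 partners 38.4%. Of the 44 genes higher in whole cells at day 10, 28 were also higher here (63.6% of those and 68.3% of the cytoplasmic ones), and 25 were lower in both (58.1% and 53.2%), with none opposite. Over all genes called, the shares were 49.2% and 79.5% for rises and 62.3% and 56.2% for falls, with 34 and 7 called the opposite way in the cytoplasm. When nucleus day 0 replicate 3 and nucleus day 12 replicate 1 were left out of the fit, 180 genes passed, 53.9% against 59.5% of all genes. A fit of only the cytoplasmic groups called 179 of 322 tested, 55.6% against 64.7% of all genes.

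Gm17146 was at 0.807, 0.728 and 0.603 FPKM in the cytoplasm at day 0 and 4.24, 4.63 and 3.17 at day 12, a rise of 1.88 ± 0.50 (limma adjusted p = 0.0141) that lost its call without day 12 replicate 2. Gm16229 rose by 1.87 ± 0.32 (Nab2 1.84 ± 0.19), Gm17201 by 1.80 ± 0.15 (Ankrd52 1.97 ± 0.35) and 4933427J07Rik by 1.80 ± 0.42. Falls were led by Gm15512 (-2.04 ± 0.23, partner -1.69 ± 0.17) and Nphs1os (-1.94 ± 0.26), inside the nephrin gene Nphs1 (-1.78 ± 0.21). Ptprtos, inside the phosphatase gene Ptprt with no exon bases shared, went from 2.38, 2.29 and 2.02 to 0.417, 0 and 0.432 FPKM (-1.86 ± 0.40), and Ptprt was too low to be tested. Across 312 pairs, both genes were higher in 33 and both lower in 31. In 1, 2310043M15Rik rose (1.08 ± 0.21) and its partner Dop1b fell (-0.72 ± 0.12).

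The 9 side-by-side pairs that share no transcribed bases are described together here and were singled out after their values were seen. In the cytoplasm 6 of the 9 antisense genes fell and none of the 9 partners passed, where 16.6% of all genes were lower. AV099323, whose start is 43 bases from that of the replication clamp gene Pcna, went from 3.42, 3.92 and 3.17 to 1.24, 0.770 and 0.492 FPKM. Map2k3os, 166 bases from the p38 kinase kinase gene Map2k3, went from 4.66, 3.74 and 3.34 to 1.23, 1.15 and 1.45. 2810001G20Rik, 16 bases from the haem synthesis gene Cox10, went from 1.99, 2.13 and 2.19 to 1.08, 0.862 and 1.03. No groups overlapped, and the changes were -1.62 ± 0.24, -1.31 ± 0.20 and -0.81 ± 0.19 (limma adjusted p of 0.000572, 0.00072 and 0.00696), with calls that held under every alternative run. The cytoplasmic libraries had relative depths of 1.50 to 1.81 at day 0 and 1.33 to 1.54 at day 12.

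The partners stayed nearer to their day 0 level. Pcna went from 108 to 92.4 FPKM (-0.22 ± 0.16), Map2k3 from 14.5 to 15.7 (0.12 ± 0.10) and Cox10 from 14.6 to 16.1 (0.13 ± 0.18). Gm11423, beside the DNA ligase gene Lig3, fell by -1.40 ± 0.39 (Lig3 -0.34 ± 0.14), Gm13375 beside Arhgap21 by -0.60 ± 0.18 (Arhgap21 -0.07 ± 0.48) and Gm12932 beside Meaf6 by -0.74 ± 0.26 (Meaf6 0.07 ± 0.14). The call for Gm12932 was lost without any 1 of the 6 cytoplasmic libraries and under 4 other alternatives, and those for Gm11423 and Gm13375 were each lost without any 1 of 4 libraries. The 3 without a call were Etaa1os, Gm11520 and Gm12279, with changes of -0.28 ± 0.35, -0.52 ± 0.50 and 0.22 ± 0.42.

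In whole cells at day 10, Map2k3os (-0.79 ± 0.18), 2810001G20Rik (-0.84 ± 0.22), Gm11423 (-1.01 ± 0.28) and AV099323 (-0.98 ± 0.37) were lower. Map2k3os was at 3.56, 3.35 and 3.13 FPKM at day 0 and 1.50, 1.71 and 1.98 at day 10, without overlap, while Map2k3 was at 16.9, 17.2 and 17.9 and then 18.7, 19.1 and 17.7. Lig3 and Pcna fell as well (-0.46 ± 0.17 and -0.34 ± 0.09), and the call of AV099323 was lost in several fits (adjusted p = 0.0462 with all libraries). In the libraries labelled day 12 Map2k3os was at 3.10, 3.46 and 3.02 FPKM and none of the 9 passed. In whole cells the day 0 libraries were also the deepest, and the part of depth in these falls was not tested.

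Nuclear and cytoplasmic levels were compared at day 12, and the rule used neither group. The spread in this test came from all 12 fraction libraries, those of nucleus day 0 included. It did choose genes by their nuclear level at day 0, which can favour genes that are richer in the nucleus. The background of all genes was not chosen in that way, and how far the rule set the shares below was not tested. Of 334 antisense genes, 83 were higher in the nucleus (24.9%, against 18.4% of all genes) and 36 lower (10.8%, against 15.7%), together 35.6% against 34.1%. The median difference was 0.13, beside 0.06 for all genes. It was 0.57 for the 167 lincRNAs at 2 FPKM or more in the nucleus at day 0, of which 64 were higher in the nucleus and 16 lower. Of 10520 protein-coding genes at that level or above, 17.8% were higher and 21.7% lower, with a median of -0.03. Beyond that floor, neither list was matched to the antisense genes in level. Among the 44 antisense genes that share no exon bases with a partner, 14 were higher and 2 lower with a median of 0.60. Among the 290 that share some, 69 were higher and 34 lower with a median of 0.06. As a description, the day 0 difference was above 0 in 202 genes with a median of 0.32 (0.12 over all genes), and the nuclear level at day 12 minus that at day 0 had a median of -0.08 (-0.10 over all genes).

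Quantile normalization changed the balance to 56 higher and 49 lower, and that of all genes from 3156 higher and 2681 lower to 2200 and 3198. The median difference of the antisense genes was then -0.02, beside -0.07 for all genes. Without cytoplasm day 12 replicate 2 the count was 79 (23.7% against 24.4% of all genes). Without nucleus day 0 replicate 3 and nucleus day 12 replicate 1 it was 190 (123 higher and 67 lower, 56.9% against 60% of all genes). The fractions differed in their marker RNAs: the summed level of 3 nuclear RNAs was 130 to 298 FPKM in the nuclear libraries of day 12 and 25.1 to 27.8 in the cytoplasmic ones, and that of 4 cytoplasmic RNAs was 3090 to 5416 and 7639 to 8234.

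**Figure D5:**
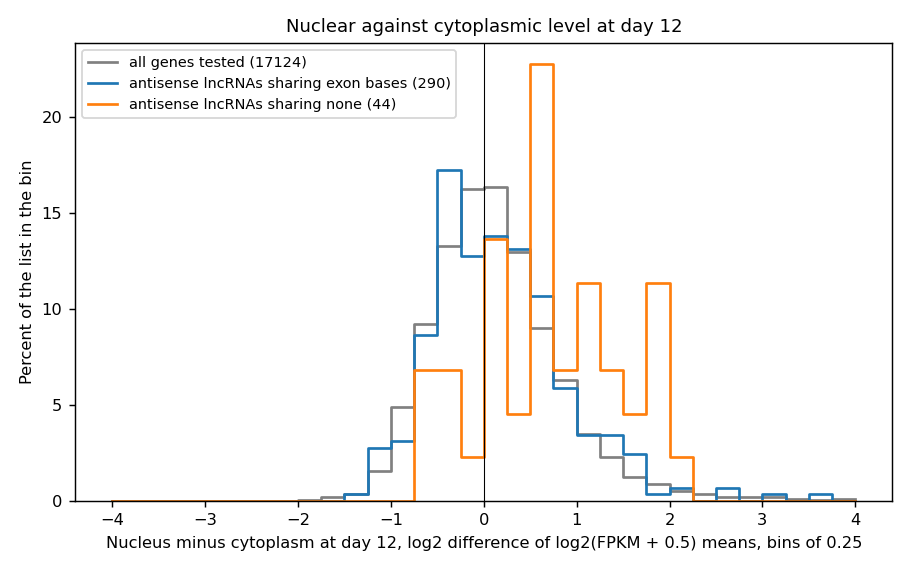
Distribution of the log2 difference of nucleus minus cytoplasm at day 12 (x axis, bins of 0.25) as the percent of each list in a bin (y axis), for all 17124 genes tested, 290 antisense lncRNAs that share exon bases with a partner and 44 that share none. The 290 and all genes each have a median of 0.06, and the 44 have a median of 0.60.

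The genes with the largest nuclear excess lay inside coding genes that were also higher in the nucleus. Gm17111, inside the dynein heavy chain gene Dync1h1, was at 151, 110 and 124 FPKM in the nucleus and 8.13, 12.9 and 10.3 in the cytoplasm, a difference of 3.57 ± 0.22 where Dync1h1 differed by 3.23 ± 0.37. Gm15247 and Gm15726 lie next to each other inside the ubiquitin ligase gene Mid1 on the X chromosome. Gm15726 (chrX:169979047-169985232, minus strand) was at 289, 254 and 239 FPKM in the nucleus and 42.8, 39.4 and 41.1 in the cytoplasm. The differences were 3.19 ± 0.15 and 2.64 ± 0.37, beside 2.59 ± 0.14 for Mid1, and no groups overlapped (limma adjusted p from 3.07e-06 to 0.00042). Gm15419 in the collagen gene Col4a2 differed by 2.72 ± 0.77, beside 3.15 ± 0.19, and its call was lost in some fits without 1 library.

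On the cytoplasmic side were Gm15829, head to head with the pyrimidine synthesis gene Umps (-1.34 ± 0.15, Umps -0.96 ± 0.14), and Gm15522 in the ribosome assembly gene Nop14 (-1.24 ± 0.18, Nop14 -0.82 ± 0.08). Gm7008 in Ifrd1 differed by -1.07 ± 0.19 (Ifrd1 -0.96 ± 0.18) and Gm10143, tail to tail with the flap endonuclease gene Fen1, by -1.03 ± 0.12 (Fen1 -1.08 ± 0.11). In 312 pairs both genes were nuclear in 53 and both cytoplasmic in 26, and 21 and 9 antisense genes were called alone.

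Only 4 pairs were called in opposite directions, each with the antisense gene higher in the nucleus and the partner higher in the cytoplasm. 1600020E01Rik, head to head with the RNA-binding protein gene Pcbp1, was at 7.90, 6.34 and 6.74 FPKM in the nucleus and 2.71, 3.05 and 2.09 in the cytoplasm (1.27 ± 0.23), where Pcbp1 differed by -0.87 ± 0.13. It kept its call under every alternative run. Gm17210 with Parg, 2810001G20Rik with Cox10 and Appbp2os with Appbp2 were the others (1.83 ± 0.54, 0.59 ± 0.19 and 0.64 ± 0.17, against -0.51 ± 0.11, -0.63 ± 0.18 and -0.67 ± 0.14), and these calls were lost in some fits.

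Tug1, the best known of these RNAs, starts head to head with the chromatin gene Morc2a, and 4.96% of its exon bases are shared. It was at 68.6, 34.8 and 34.4 FPKM in the nucleus and 23.4, 22.5 and 20.4 in the cytoplasm at day 12, with no overlap and nucleus replicate 1 far above the others. The difference was 0.96 ± 0.33 (limma adjusted p = 0.0412), beside -0.17 ± 0.11 for Morc2a, and the call was lost without nucleus replicate 1 or any one of the 3 cytoplasmic replicates. In whole cells Tug1 was at 17.8, 13.6 and 14.3 FPKM at day 0 and 20.1, 18.7 and 17.8 at day 10, which just overlapped. The call for this rise of 0.31 ± 0.10 (Morc2a 0.02 ± 0.21) was lost under both other scalings. It was also lost without day 0 replicate 2 or 3, or day 10 replicate 1 or 2.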

How the data were processed

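FPKM values per gene were deposited by the authors for 27 libraries in 9 groups, per the file headers, with no read counts, so the depth behind a value is known only relative to other libraries. Cufflinks 1.3.0, TopHat2 2.0.9 and mm9 are named, without roles, per the submitters' processing notes. Not given in the sources used here are the annotation, the strand setting and how multi-mapped reads were treated. Gene identifiers linked the values to types, partners and GRCm38 coordinates in GENCODE M21, and no mm9 coordinates were used. Promoter windows came from RefSeq (GRCm38.p6).

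Tests were made by limma 3.58.1 (R 4.3.3) on log2(FPKM + 0.5), 2-sided, with eBayes and trend, Benjamini-Hochberg adjustment over all genes and a threshold of 0.05. A gene entered the fit when any group's mean reached 0.5 FPKM. One fit held the 15 whole-cell libraries and the other the 12 fraction libraries. In simulated data for day 10 (13842 genes), 86% of the genes given a log2 change of 1 were recovered and 21 of 206 calls were false. For the cytoplasm (14383 genes) the values were 86% and 7 of 190. Each simulation changed 200 genes and drew independent noise from the spread at day 0. In the data 6987 genes passed at day 10, so these rates may not carry over. Plots were made with matplotlib.

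The 334 genes and the lists were chosen with earlier results of these data known. Named genes come from the 10 with the highest nuclear mean at day 0, those with a symbol other than a predicted model, the 6 largest rises and 6 largest falls at day 10, the 3 or 4 largest each way in the other comparisons, and the 3 on either side of the threshold. Genes named for their pair (no partner, no overlap or opposite calls, and the 2 low antisense genes) and Gm17134 were chosen after their values were seen. The pair with the largest fall at day 10 is not reported here. Alternatives were other pseudocounts (0.1 and 1), filters, scalings, a replicate block, fits of fewer groups and each library left out.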

Additional observations from a re-analysis of the deposited data

How the results depend on the processing

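Counts of antisense lncRNAs past the threshold stayed within 1.5 times of 10, 59, 87, 19, 88 and 119 (days 4, 8, 10, labelled day 12, cytoplasm, nucleus against cytoplasm) under the other pseudocounts and filters, median-of-ratios scaling and the fit without the libraries labelled day 12 where it applies. Quantile normalization gave 17 at day 4 (5.23% against 7.85% of all genes). Fits of only the 2 groups compared gave 4, 115, 151, 77 and 179 in the first 5 comparisons, and the fraction fit without nucleus day 0 replicate 3 and nucleus day 12 replicate 1, chosen after seeing the data, gave 180 and 190. Leaving out 1 library in turn gave 6 to 21, 32 to 43, 65 to 77, 7 to 14, 61 to 69 and 79 to 113. In these fits the shares of all genes were 4.59% to 10.7%, 21.8% to 24.5%, 35.8% to 37.9%, 6.63% to 10.4%, 24.1% to 24.6% and 24.4% to 38.3%. With the replicate number as a block the counts were 7, 51, 87, 15, 83 and 107, where 5.83%, 27.6%, 41.9%, 12%, 30.7% and 32.3% of all genes passed. No pairing of libraries by number was detected, and 2 of 15 whole-cell and 4 of 12 fraction libraries correlated best with their own number. The median correlation of same-numbered deviations was -0.003 and -0.007. It ran from -0.296 to 0.214 in whole cells and from -0.358 to 0.267 in fractions, where 5 of 18 pairs were above 0.1. With 3 libraries a group, this check could miss a weak pairing. Of 146 changes of single named genes, 86 kept their call in every fit, 59 lost it without some library, 22 under quantile normalization, 21 without the filter and 11 with the block, and 0 changed sign. The cause of these shifts was not tested. With 3 libraries a group and no counts, changes of genes near 0.5 FPKM are the least certain.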

Other observations

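Some well-known antisense transcripts were present with no call. Gt(ROSA)26Sor, the transcript of the Rosa26 locus used for transgenes, was at 8.97, 7.52 and 7.01 FPKM in whole cells at day 0 and 6.79, 5.63 and 6.11 at day 10 (log2 change -0.32 ± 0.22), and passed in no comparison. Mhrt, known from the heart and tail to tail with the myosin gene Myh7, was at 5.26, 3.39 and 2.05 FPKM in the nucleus at day 0 and at 0.151, 0.124 and 0.0590 in the nucleus at day 12, while it stayed at 0.109 to 0.955 FPKM in the whole-cell libraries. Myh7 in the nucleus was at 2.56, 2.75 and 0.713 FPKM and then at 0.0876, 0.0719 and 0.128. The nuclear values of day 0 chose the genes, so this is a description.

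Kdm6bos, inside the histone demethylase gene Kdm6b, was higher in the nucleus at day 12 (26.9, 22.5 and 24.0 FPKM beside 14.2, 12.3 and 13.4 in the cytoplasm, a log2 difference of 0.85 ± 0.15) and so was Kdm6b (0.61 ± 0.21). Gm12279 starts 130 bases from the ubiquitin gene Ubb. Ubb fell in whole cells from 928 to 344 FPKM on average at day 10 (-1.43 ± 0.14) and also in the libraries labelled day 12 (-1.28 ± 0.14), and Gm12279 went from 1.15 to 0.722 FPKM with no call (-0.44 ± 0.51).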
